A study of Mus musculus with 24 samples.

Results

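The genes described here are 35 genes of glycolysis and of the cellular response to low oxygen, out of 20170 genes that could be named on the array. They were listed by name and not by a cut-off on a measured value, but earlier results of these data were known when they were chosen. Each was read from the brightest of its probes by mean signal over 24 arrays. The set holds 17 core glycolytic enzymes and lactate dehydrogenases, 4 glucose and lactate transporters, 4 kinases of the pyruvate dehydrogenase complex, 3 PFKFB enzymes and 7 genes of the hypoxia-inducible factor (HIF) pathway or its targets. All 35 were among the 14459 genes tested, and 31 were well above background on all 24 arrays. The other 4 were Slc2a3, Pdk4, Egln3 and Car9.

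RNA came from mouse embryonic fibroblasts (MEF), cells grown from embryos, all kept in serum-containing medium with 2-mercaptoethanol and non-essential amino acids. Wild-type cells (4 arrays per condition) were set beside Perk -/-, Atf4 -/- and eIF2a A/A cells (2 arrays per condition each), each either untreated or exposed for 12 h, by the sample labels, to 2 µg per mL of tunicamycin. Cells with the transgene Tg(Fv2E-PERK) were untreated or given AP for 12 h by the labels, with 2 arrays each and no dose in the labels. PERK, a kinase in the membrane of the endoplasmic reticulum (ER), phosphorylates eIF2α when proteins misfold, ATF4 is a transcription factor made more efficiently when eIF2α is phosphorylated, and in eIF2a A/A cells the phosphorylated serine is replaced by alanine. Tunicamycin blocks N-glycosylation and causes ER stress, while AP dimerises the Fv2E-PERK fusion and switches on its kinase without misfolded protein. The comparisons asked how these genes respond to ER stress, how much of that response depends on PERK, eIF2α phosphorylation and ATF4, and what activation of PERK alone does. The labels do not give the clone, the passage or the promoter of the transgene, nor whether replicates were separate cultures, so p-values measure the spread between these arrays, which may be technical.

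Glycolysis splits glucose into pyruvate, which either enters mitochondria through pyruvate dehydrogenase or is reduced to lactate and exported. Hexokinase traps glucose in the cell, phosphofructokinase commits it to breakdown, and PFKFB enzymes set the level of fructose 2,6-bisphosphate, which activates phosphofructokinase. PDK kinases switch pyruvate dehydrogenase off. In low oxygen the prolyl hydroxylases Egln1 and Egln3 no longer mark HIF-1α, the protein of Hif1a, for destruction, and HIF then binds a short DNA element with the core ACGTG or GCGTG beside many genes of glycolysis, glucose uptake and pH control. Fibroblasts in culture rely strongly on glycolysis.

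The ACGTG core is shown in promoters of 6 members, each of which holds it. Other members described below, such as Hk2, Aldoc and Pdk4, are not shown. Where a gene had more than 1 annotated start, the promoter with the most matches was taken. Promoter windows of 300 bases, from 250 bases before to 50 after the annotated start, were found for 33 members in RefSeq sequences of GRCm38.p6, and Ndrg1 and Slc2a3 had no entry. ACGTG was searched on both strands and lay in at least 1 window of 23 of the 33 genes, 10 of them core enzymes and 6 of the 6 HIF pathway and hypoxia-regulated genes with an entry. Counted by window, it lay in 27 of 49 member windows (55.1%), against 19.6% of the 32851 windows of all genes. GCGTG, the other form of the core, was found in 27 of the 49 windows and in 32.4% of all windows. TGATGNAA, a form of the site bound by ATF4 with partners, was in no member window and in 3.97% of all windows. These are matches of letters and not shown sites, and the members include genes known as hypoxia targets. In the stretches below, each on the coding strand of its gene and from GRCm38.p6, capitals mark ACGTG or its reverse complement CACGT, and where both overlap they read CACGTG.
Ldha, lactate dehydrogenase A, chr7:46845644-46845789, plus strand: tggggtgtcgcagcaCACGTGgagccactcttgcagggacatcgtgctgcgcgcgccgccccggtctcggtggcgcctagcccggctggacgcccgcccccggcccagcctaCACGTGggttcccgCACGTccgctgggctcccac
Pgk1, phosphoglycerate kinase, chrX:106186935-106186988, plus strand: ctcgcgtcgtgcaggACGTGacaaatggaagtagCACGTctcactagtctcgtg
Slc2a1, the glucose transporter GLUT1, chr4:119108694-119108728, plus strand: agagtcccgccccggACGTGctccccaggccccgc
Slc16a3, the lactate exporter MCT4, chr11:120949025-120949066, plus strand: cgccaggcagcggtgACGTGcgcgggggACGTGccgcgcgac
Bnip3, a mitophagy receptor, chr7:138909594-138909629, minus strand: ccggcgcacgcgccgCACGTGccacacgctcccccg
Car9, carbonic anhydrase 9, chr4:43506993-43507025, plus strand: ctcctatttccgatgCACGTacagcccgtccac

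Some facts of the arrays bear on every value. A level here is log2 of the processed spot intensity minus that array's 75th percentile, so levels of different genes come from different probes and are not compared. The arrays came in 3 scan runs, and the wild-type arrays fall into both of the first: replicates 1 and 2, in files named for the wild type of the Atf4 line, were run with the Atf4-null arrays, and replicates 3 and 4, named for that of the Perk line, with the Perk-null arrays. Scan run and origin of the wild-type cells cannot be told apart. Fv2E-PERK and eIF2a A/A arrays formed the third run and share no group with the others, so their untreated levels are not set against wild type. The 75th percentile was 111 intensity units on treated Atf4-null replicate 1, the weakest array, and up to 418 elsewhere. All 9 known ER stress genes examined rose in tunicamycin-treated wild-type and Perk-null cells, several by less in Perk-null cells. Sdf2l1 went from 1.74 and 1.26 to 2.28 and 2.57 there, against 1.83 to 2.12 untreated and 6.27 to 6.77 treated in wild type. Hspa5 read 6.26 and 6.21, then 7.42 and 7.54, against 6.74 to 7.09, then 9.05 to 9.23. Asns rose no less there, and in Atf4-null cells it went from 2.78 and 3.25 to 1.29 and 1.99. The part of this in the members' responses was not tested. The Atf4 probe differed by -5.83 ± 0.88 (SE) on the log2 scale in untreated Atf4-null from wild-type cells (adjusted p = 0.0002). The Eif2ak3 (Perk) probe differed by -1.20 ± 0.24 in untreated Perk-null cells (adjusted p = 0.001), and the files do not say whether it lies in the deleted part. The cells carried fibroblast markers, 10 of 12 being well above background on all arrays. The untreated Perk-null arrays stood apart here: their fibroblast markers summed to 7.83 to 7.86 on the log2 scale against 9.67 to 10.25 in untreated wild type, with 10 of 12 markers lower and 1 higher by the test, and their epithelial markers summed to 5.61 to 5.93 against 1.19 to 2.16, with 5 of 6 higher and none lower. Most of that epithelial sum was the keratin gene Krt18, which read 5.43 and 5.71 in untreated Perk-null cells and -0.74 to 0.28 in untreated wild type. Cdh1, which encodes E-cadherin, read -0.84 and -0.14 in these Perk-null cells and -6.68 to -5.06 in wild type. The fibroblast sum was also lower after treatment in wild-type (9.03 to 9.44) and Fv2E-PERK cells (8.23 to 8.27, from 9.34 to 9.35), and was 9.37 to 10.29 in untreated Atf4-null cells. The epithelial sum there was -0.65 to 0.40, below that of wild type, with 2 of 6 markers lower and none higher by the test. The Perk-null arrays also differed within each group: Adipoq, an adipocyte gene, read 0.66 on untreated replicate 2 and 0.35 on treated replicate 1, which shared a slide and scan session, but -6.78 and -7.03 on the other untreated and treated array. Their adipocyte markers summed to -0.37 to 2.84 untreated and -0.23 to 2.52 treated, and Lep, another of the 5, was well above background on no array. Markers differed between arrays of other groups as well. The 2 untreated Atf4-null arrays read 6.46 and 3.19 for Col3a1 and -2.50 and 0.28 for Thy1, both fibroblast markers. Dcn, another, read 5.64 and 4.78 in untreated wild type of run 1 and 0.30 and 0.24 in that of run 2. The part of these markers in the members' differences was not tested.

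Tunicamycin raised 4 and lowered 10 of the 35 members in wild-type cells, at an adjusted p under 0.05 in limma, where 37.5% of all tested genes passed in either direction, 21.2% higher and 16.3% lower. In Perk-null cells 0 rose and 4 fell, where 2.28% of all genes passed, 1.87% higher and 0.408% lower. In Atf4-null cells 2 rose and 13 fell, where 29.0% passed, 12.0% higher and 17.1% lower. In eIF2a A/A cells 3 rose and none fell, where 4.90% passed, 3.08% higher and 1.82% lower. AP in Fv2E-PERK cells raised 1 and lowered 3, where 4.07% passed, 2.79% higher and 1.28% lower. Each treated group had 2 arrays except wild type with 4. Set against the wild-type response, 3 members responded higher and 4 lower in Perk-null cells (13.2% of genes passed, 6.52% higher and 6.64% lower). In Atf4-null cells 6 responded higher and 10 lower (30.5% passed, 10.9% higher and 19.6% lower), and in eIF2a A/A cells 9 higher and 2 lower (18.2% passed, 8.12% higher and 10.1% lower). These 3 differences share the wild-type arrays. The wild-type response by run had 4 members higher and 9 lower in run 1 (37.0% of genes passed, 20.4% higher and 16.7% lower) and 3 higher and 6 lower in run 2 (21.2% passed, 12.2% higher and 9.03% lower). Run 2 minus run 1 differed for 9 members, 6 higher and 3 lower (7.88% passed, 4.75% higher and 3.13% lower). Untreated wild-type cells of run 2 minus run 1 had 3 members higher and 8 lower (31.7% passed, 17.6% higher and 14.1% lower). With the wild type of the same run as control, 1 member responded higher and 2 lower in Perk-null cells (8.35% passed, 4.22% higher and 4.14% lower) and 8 higher and 13 lower in Atf4-null cells (34.3% passed, 13.5% higher and 20.8% lower). The 14 of 35 members called in the wild-type response are close to the share of all genes. In untreated cells 24 members were higher and none lower in Perk-null than in wild type, where 41.1% of genes passed in either direction, 16.3% higher and 24.8% lower. In untreated Atf4-null cells 2 members were higher and 21 lower, where 21.1% passed, 10.4% higher and 10.7% lower. Set only against the wild-type arrays of its own run, Perk-null again had 24 higher and 0 lower (40.8% of genes passed, 16.1% higher and 24.7% lower) and Atf4-null 2 higher and 21 lower (23.9% passed, 11.7% higher and 12.3% lower), though not with all the same genes: Egln3, for one, passed only there. In those comparisons, which share no control array, 18 of 35 members were both higher in Perk-null and lower in Atf4-null cells, and 4.68% of all tested genes were.

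**Figure D1:**
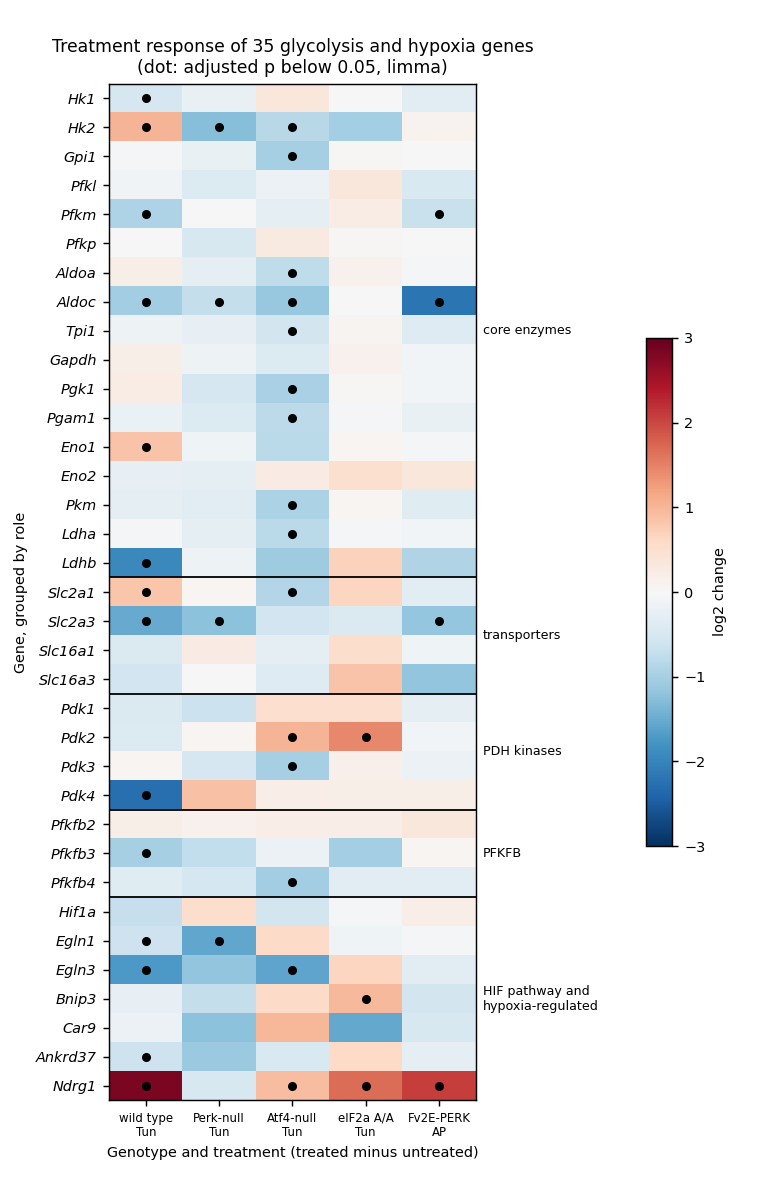
Log2 change with treatment (treated minus untreated) of the 35 genes, grouped by role on the vertical axis, in 5 genotypes; colours run from -3 to 3 and a black dot marks an adjusted p below 0.05. Wild-type cells have 14 dots, Perk-null 4, Atf4-null 15, eIF2a A/A 3 and Fv2E-PERK 4, and Ndrg1 is called in every column but Perk-null.

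Hk2, the hexokinase isoform that growth signals and stress regulate, was 1 of 4 members, with Pfkm, Pdk4 and Ndrg1, whose tunicamycin response differed from wild type in all 3 mutants. Its levels in untreated wild-type cells were 2.21 and 2.58 in run 1 and 0.24 and 0.42 in run 2, and with tunicamycin 2.86, 2.78, 1.86 and 2.02. Each treated wild-type array was above the untreated arrays of its own run, though both untreated arrays of run 1 lay above both treated arrays of run 2. The pooled change was 1.02 ± 0.21 (SE), a 2.02-fold rise (adjusted p = 0.0014), made of 0.42 in run 1, which did not pass (adjusted p = 0.14), and 1.61 in run 2, which did, and these responses differed (1.19, adjusted p = 0.025). In Perk-null cells Hk2 went from 1.37 and 1.80 to 0.18 and 0.43, a change of -1.28 ± 0.30 (adjusted p = 0.036) whose call was lost without any of the 4 arrays (-1.49 to -1.06). In Atf4-null cells it went from 0.95 and 1.51 to 0.17 and 0.61, a change of -0.84 ± 0.30 (adjusted p = 0.046). In eIF2a A/A cells it read 1.48 and 1.71 untreated and 0.59 and 0.56 treated, a change of -1.02 that did not pass in the model with all arrays. Treated and untreated arrays did not overlap in these 3 mutants. Minus that of wild type, the response was -2.29 in Perk-null (adjusted p = 0.00097), -1.86 in Atf4-null (adjusted p = 0.0018) and -2.04 in eIF2a A/A cells (adjusted p = 0.0014). Against the wild type of the same run alone the Perk-null difference was -2.89 and the Atf4-null difference -1.26, both still called. With AP, Hk2 in Fv2E-PERK cells read 1.12 and 1.39 before and 1.32 and 1.40 after.

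The other core enzymes called in wild-type cells were Pfkm, Aldoc, Ldhb, Hk1 and Eno1. Pfkm, the muscle type of phosphofructokinase, fell from 3.08, 3.24, 3.44 and 3.39 to 2.33, 1.92, 2.59 and 2.57, by 0.94 ± 0.09 (adjusted p = 1.4e-06), and the groups did not overlap. Aldoc, the aldolase of brain and of hypoxic cells, fell by 1.05 ± 0.12, and Ldhb, the lactate dehydrogenase subunit that favours pyruvate, by 1.94 ± 0.28. Ldhb fell more in run 1 (-2.69) than in run 2 (-1.19), a difference of 1.51 that passed (adjusted p = 0.039). Hk1, the constitutive hexokinase, fell by 0.50 ± 0.18 and Eno1, the ubiquitous enolase, rose by 0.85 ± 0.29. Both calls rested on few arrays. Hk1 lost its call in 6 of 8 fits that left out an array (untreated replicates 1, 3 and 4, treated replicates 2, 3 and 4), with values down to -0.36. Eno1 lost it without untreated replicate 2 or without treated replicate 1 or 2, with values down to 0.41, and also with quantile normalization (0.57) and with the 75th percentile taken only over probes detected on all arrays, here called detected-probe scaling (0.73). Untreated Eno1 read 6.89 and 5.37 in run 1 and 8.11 and 7.99 in run 2, so its rise was 1.57 in run 1 and 0.14 in run 2. The remaining 11 core enzymes did not pass in wild-type cells, but this depended on the scaling. Pkm was called lower with normexp background correction (-0.31), quantile normalization (-0.57) and detected-probe scaling (-0.41). Pgam1 was called lower with the latter 2 (-0.54 and -0.32), Gpi1 (-0.35), Tpi1 (-0.43) and Ldha (-0.39) with quantile normalization, and Eno2 (-0.36) with detected-probe scaling. Pgk1, which makes ATP in the payoff phase, passed in none of these, at 7.45 to 7.58 untreated and 7.63 to 7.90 treated. Its response in Perk-null minus wild-type cells was -0.71 ± 0.18 (adjusted p = 0.016), a call lost against the wild type of run 2 (-0.66) and without untreated Perk-null replicate 1 or either treated array (-0.83 to -0.59), and also with normexp (-0.57) and with quantile normalization, where it was -0.36.

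Fv2E-PERK cells given AP shared calls with wild type at Pfkm, which fell by 0.67 ± 0.13, and Aldoc. Aldoc went from 2.92 and 2.73 to 0.64 and 0.64 with AP, a 4.56-fold fall (-2.19 ± 0.17, adjusted p = 3.1e-06), the steepest change of any core enzyme in the 5 responses. In Perk-null cells Aldoc fell from 6.93 and 7.14 to 6.26 and 6.36 (-0.72 ± 0.17, adjusted p = 0.030, lost without any of the 4 arrays, -0.83 to -0.62) and in Atf4-null cells from -0.21 and 0.04 to -1.27 and -1.16 (-1.13 ± 0.17, adjusted p = 0.00018). In eIF2a A/A cells it read -0.18 and -0.05 before and -0.03 and -0.24 after tunicamycin, groups that overlap, and its response lay 1.02 ± 0.20 above that of wild type (adjusted p = 0.0027). The Pfkm response lay 0.94 ± 0.16 above that of wild type in Perk-null, 0.63 ± 0.16 in Atf4-null and 1.15 ± 0.16 in eIF2a A/A cells, all called. With normexp the Atf4-null difference was 0.47 and not called, and Pfkm was called lower within Atf4-null cells (-0.46). Ldhb responses lay above wild type by 1.79 ± 0.48 in Perk-null and 2.62 ± 0.48 in eIF2a A/A cells; the first became 1.04 and lost its call (adjusted p = 0.15) against the wild type of run 2, and was also lost without any Perk-null array (1.39 to 1.95 over the fits). The Pfkm call in Fv2E-PERK cells was lost when any of the 4 arrays was left out (values -0.72 to -0.61), each time leaving a group with 1 array assumed to vary like the others.

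Atf4-null cells given tunicamycin had 9 of 17 core enzymes lower and none higher by the test. The 9 span the pathway: Hk2, Gpi1 (glucose phosphate isomerase), Aldoa and Aldoc (aldolases), Tpi1 (triose phosphate isomerase), Pgk1, Pgam1 (phosphoglycerate mutase), Pkm (pyruvate kinase) and Ldha. Pgk1 went from 6.79 and 7.24 to 6.10 and 5.97, a 1.97-fold fall (-0.98 ± 0.14, adjusted p = 0.00019). Gpi1 went from 6.42 and 7.03 to 5.82 and 5.65 (-0.99 ± 0.20) and Ldha from 8.24 and 8.35 to 7.65 and 7.31 (-0.82 ± 0.14). In these 3 genes both treated arrays lay below both untreated ones. For Pgk1 and Ldha every wild-type array, treated or not, lay above every Atf4-null array, and for Gpi1 the treated wild-type arrays of run 2, at 6.98, lay below 1 untreated Atf4-null array. The changes were -0.94 ± 0.22 for Pkm, -0.78 ± 0.15 for Pgam1, -0.77 ± 0.20 for Aldoa and -0.56 ± 0.20 for Tpi1. The Tpi1 call was lost with quantile normalization (-0.16), detected-probe scaling (-0.33) and the mean over its probes (-0.42), and that of Hk2 with detected-probe scaling (-0.62). Gapdh, read from its brightest probe, read 8.11 and 8.85 before and 8.12 and 8.01 after, a change of -0.42 that did not pass, while its other 6 probes changed by -0.94 to -1.40; the mean over its 7 probes was -1.02 and passed. The median change of the 17 core enzymes was -0.78, against -0.04 for all tested genes. It was -0.11 in wild-type, -0.29 in Perk-null, 0.05 in eIF2a A/A and -0.08 in Fv2E-PERK cells, where the medians of all genes were 0.07, 0.02, 0.01 and 0.08.

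The size of that fall depended on how the arrays were scaled. With quantile normalization the core median in Atf4-null cells was -0.45, with the 75th percentile taken over probes detected on all arrays -0.55, and with normexp background correction -0.83. Detected-probe scaling moved the median of all genes from -0.04 to 0.19. The 547 tested genes with a mean level of at least 6, a range that holds 9 of the core enzymes, had a median of -0.41 in the same response and -0.07 after quantile normalization. Those 9 core enzymes had a median of -0.82 and, after quantile normalization, -0.48. As a difference from the wild-type response the core median was -0.58, and it became -0.23 with detected-probe scaling and 0.00 with quantile normalization; the bright genes had -0.54, -0.19 and 0.03. In this difference 7 core enzymes were called lower, namely Hk2, Gpi1, Aldoa, Pgk1, Pgam1, Eno1 and Ldha, and Pfkm was called higher. Under quantile normalization Gpi1, Aldoa, Eno1 and Ldha lost their calls and Pgam1 turned from -0.58 to 0.13, whereas Hk2 and Pgk1 kept theirs. With detected-probe scaling Aldoa (-0.60), Pgam1 (-0.23), Eno1 (-1.32) and Ldha (-0.41) were not called either, and with normexp Pgam1 (-0.46) was not. Calls were gained as well. Normexp added Pkm (-0.863), Gapdh (-0.850) and Tpi1 (-0.625) as lower. Quantile normalization added Hk1 (1.33) and Eno2 (0.76) as higher, and so did detected-probe scaling (1.19 and 0.83). The mean over probes added Gapdh (-1.34) as lower and Hk1 (0.86) as higher. With scan session as a block, where each Atf4-null array of run 1 shares its session with 1 wild-type array of the same treatment, Pkm (-0.97), Gapdh (-0.70) and Tpi1 (-0.57) were also called lower and Ldhb (1.62) and Hk1 (0.66) higher, while 6782 of 14459 genes passed. All treated arrays of run 1 lay on 1 slide and all untreated ones on another, and the weakest array is one of the treated Atf4-null pair. Fitted alone, the arrays of run 1 gave no called member for the Atf4-null response or for its difference from wild type in limma, with 3202 and 3385 of 14459 genes at an unadjusted p under 0.05.

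**Figure D2:**
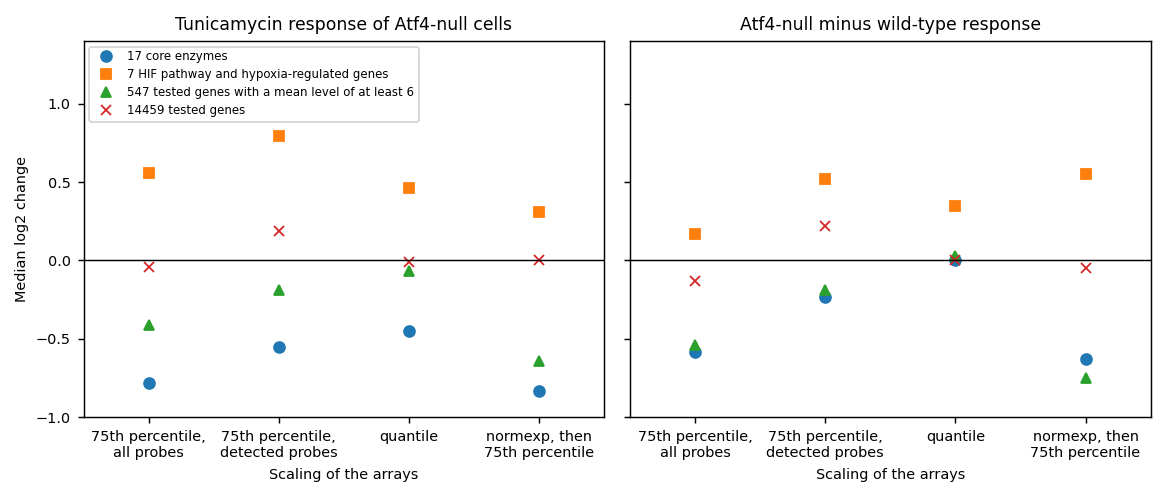
Median log2 change of the 17 core enzymes, of the 7 HIF pathway and hypoxia-regulated genes, of bright genes and of all tested genes, under 4 ways of scaling the arrays, for the Atf4-null response (left) and its difference from wild type (right). The core median stays below 0 on the left, from -0.83 to -0.45, and reaches 0.00 on the right under quantile normalization, while the HIF pathway and hypoxia-regulated genes stay above 0 in both.

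Called changes of core enzymes within the Atf4-null pair also rested on single arrays in part. Hk2 lost its call without untreated replicate 2 or treated replicate 1 (values down to -0.56), Aldoa without untreated or treated replicate 2 (down to -0.62), Tpi1 without untreated replicate 1 or 2 or treated replicate 2 (down to -0.38) and Pkm without treated replicate 2 (-0.63). Gpi1, Aldoc, Pgk1, Pgam1 and Ldha kept theirs in each of these fits. Of the differences from wild type, Gpi1 lost its call without untreated Atf4-null replicate 2 (-0.66), and Aldoa, Pgam1 and Eno1 without untreated or treated Atf4-null replicate 2 (up to -0.80, -0.49 and -1.22). Several of these enzymes have processed pseudogenes or close paralogs (Gapdh, Eno1, Pgk1, Ldha, Aldoa, Tpi1, Pkm and Pgam1), and cross-hybridisation of their probes was not tested.

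In untreated cells the core enzymes were higher in Perk-null and lower in Atf4-null cells, with medians of 0.75 and -0.62 against medians of all genes of -0.07 and 0.05. Aldoc differed most: it read 6.93 and 7.14 in Perk-null cells, 0.80 to 1.86 in wild type and -0.21 and 0.04 in Atf4-null cells. The Perk-null excess was 68.0-fold (6.09 ± 0.15, adjusted p = 1.3e-12) and Atf4-null cells were 3.11-fold below wild type. Pfkp, the platelet phosphofructokinase, was 4.41-fold higher in Perk-null cells (2.14 ± 0.21) and 2.03-fold lower in Atf4-null cells (-1.02 ± 0.21); its second, dimmer probe did not follow the first over the arrays (r = 0.00). Pfkl, the liver type, read 4.66 and 4.40 in Perk-null, 3.24 to 3.68 in wild type and 1.93 and 2.23 in Atf4-null cells, with no overlap. Tpi1 was higher in Perk-null cells by 1.23 ± 0.19 and Eno2, the neuronal enolase, by 1.46 ± 0.18. Eno2 read 2.38 and 2.27 there, above wild type of run 2 (0.87 and 0.87) but below that of run 1 (2.45 and 2.82). Hk2, also called higher, likewise lay above run 2 and below run 1 (1.37 and 1.80, against 0.24 and 0.42, and 2.21 and 2.58). For these genes the excess is over the wild type of run 2 only. Pgk1 was higher by 0.53 ± 0.14 and Ldha by 0.39 ± 0.14, both calls lost with normexp background correction (0.41 and 0.28). In all, 12 of 17 were higher in Perk-null cells and 12 lower in Atf4-null cells, with Eno1 higher there by 1.16 ± 0.39, a call lost with detected-probe scaling (1.09). The Gapdh call in Atf4-null cells was lost with quantile normalization (-0.43) and with the mean over its probes (-0.36). In Perk-null cells Gapdh was not called in the model with all arrays. It was called higher there with the mean over its probes (0.68) and with detected-probe scaling (0.47). Of the Perk-null calls, Hk2 was lost without wild-type replicate 3 or 4 or Perk-null replicate 2 (values down to 0.72), Ldha without wild-type replicate 4 or either Perk-null array (down to 0.30) and Pgk1 without Perk-null replicate 1 (0.41). Of the Atf4-null calls, Gpi1 and Pgk1 were lost without Atf4-null replicate 1 (-0.39 and -0.28), Gapdh without that array or wild-type replicate 1 (up to -0.20), Hk2 without that array or wild-type replicate 1 or 2 (up to -0.58), Aldoa without either Atf4-null array (up to -0.55), Tpi1 without either of these or wild-type replicate 2 or 3 (up to -0.51), Hk1 without wild-type replicate 1 or Atf4-null replicate 2 (up to -0.62), and Eno1 without wild-type replicate 2 or either Atf4-null array (down to 0.49). The part of the shift in fibroblast and epithelial markers of the Perk-null cells in these differences, and of the lower epithelial sum of the Atf4-null cells, was not tested.

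**Figure D3:**
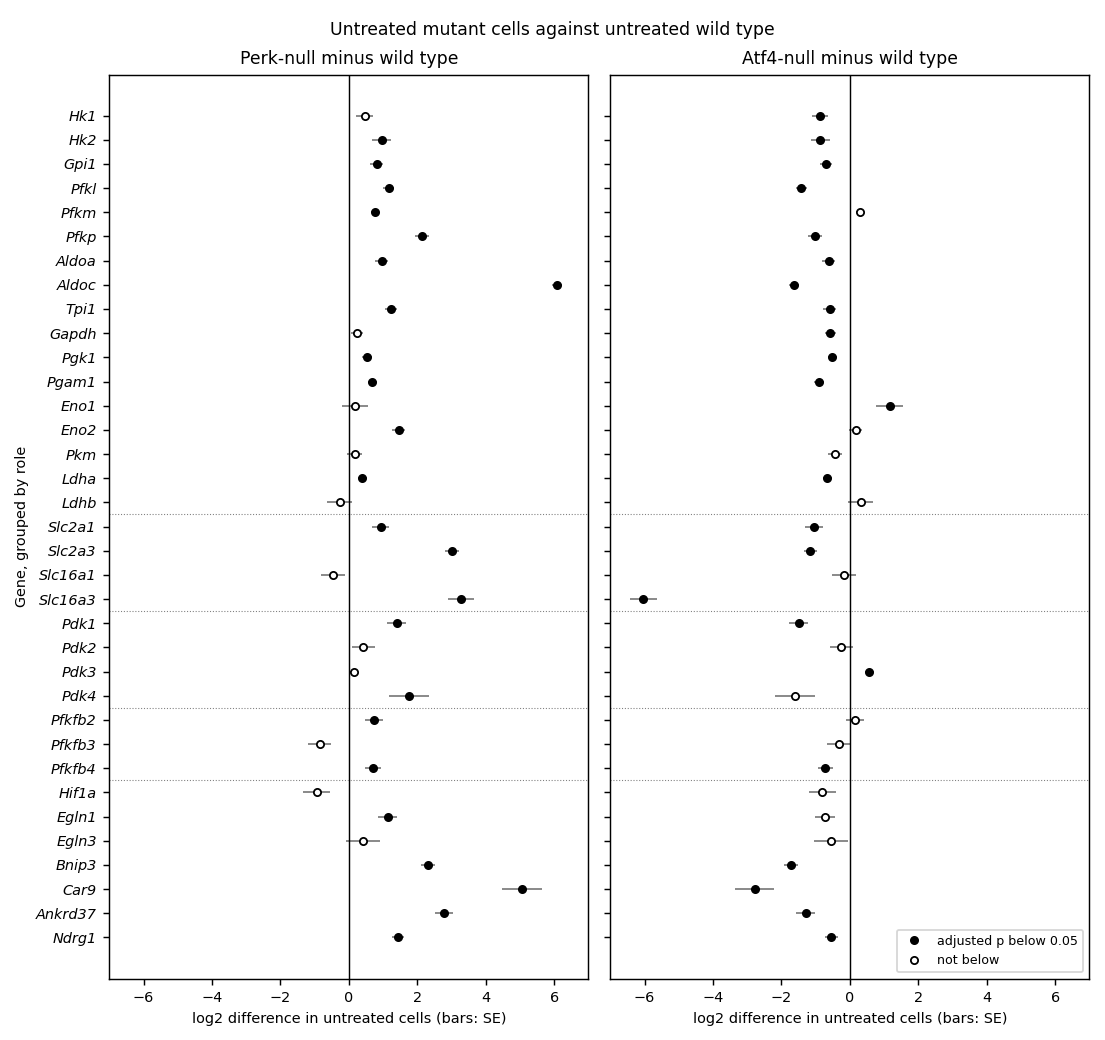
Log2 difference of untreated Perk-null (left) and Atf4-null cells (right) from untreated wild-type cells, with SE bars, for the 35 genes grouped by role; filled points have an adjusted p below 0.05. On the left 24 filled points lie above 0 and none below; on the right 21 lie below 0 and 2, Eno1 and Pdk3, above.

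Both glucose transporters and the lactate exporter separated the lines. Slc2a1, the main glucose carrier of fibroblasts, read 4.18, 4.91, 4.53 and 4.65 in untreated and 5.63, 5.05, 5.40 and 5.52 in treated wild-type cells. The groups did not overlap, the rise was 1.78-fold (0.83 ± 0.20, adjusted p = 0.0037), and it was alike in run 1 (0.79) and run 2 (0.87), each called. In Atf4-null cells Slc2a1 went the other way, from 3.01 and 3.96 to 2.41 and 2.81 (-0.88 ± 0.28, adjusted p = 0.029), a call lost without untreated replicate 2 or treated replicate 1 (values down to -0.40) and under quantile normalization (-0.68) or detected-probe scaling (-0.65). The difference from wild type was -1.71 ± 0.34 (adjusted p = 0.0021) and -1.67 against the wild type of run 1. In Perk-null cells it read 5.48 and 5.59 before and 5.54 and 5.65 after, at the height of treated wild type, and in eIF2a A/A cells 4.09 and 4.47 before and 4.91 and 4.92 after, a change of 0.63 that did not pass. Slc2a3, the high-affinity transporter GLUT3, fell in wild-type cells (-1.50 ± 0.15), in Perk-null cells from 2.08 and 2.25 to 0.97 and 0.89 (-1.24 ± 0.21, adjusted p = 0.0042) and in Fv2E-PERK cells from -1.77 and -2.0 to -2.83 and -3.26 (-1.16 ± 0.21, adjusted p = 0.0057). Its fall in wild type was larger in run 2 (-1.92) than in run 1 (-1.09), a difference that passed. The Perk-null call was lost without untreated or treated replicate 2 (-1.32 to -1.16 over all 4 fits), and that in Fv2E-PERK cells without untreated replicate 1 or AP replicate 2 (up to -0.94) and with normexp background correction, where the change was -0.61. Slc2a3 was not well above background on either tunicamycin-treated eIF2a A/A array, where the untreated level was at least 1.29-fold higher. In Atf4-null cells, where 1 treated array was not well above background, its response lay 0.93 ± 0.26 above wild type, lost against the wild type of run 1 (0.51) and with quantile normalization (0.49). Its response in eIF2a A/A cells, 1.07 ± 0.26 above wild type by the fit, therefore rests on a bound and lost its call without untreated eIF2a A/A replicate 2 (0.96 to 1.19 over the fits) and with normexp (0.79).

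Slc16a3 showed the widest spread between lines. It read 5.41, 5.39, 3.98 and 3.83 in untreated wild-type cells, 7.19 and 6.99 in Perk-null and 0.02 and -1.12 in Atf4-null cells. Perk-null cells were 9.64-fold above wild type (3.27 ± 0.39, adjusted p = 8.7e-06) and Atf4-null cells 65.5-fold below it (-6.03 ± 0.39, adjusted p = 5.6e-08). Both differences far exceed the distance between the wild-type arrays of both runs, where run 2 minus run 1 was -1.50. Treatment moved Slc16a3 by between -1.19 (AP) and 0.86 (eIF2a A/A cells), and no change passed in the model with all arrays. The fall in wild type was called with normexp (-0.66). The response of eIF2a A/A cells minus that of wild type was not called in that model. It passed under each of the other 3 scalings, at 1.38 with normexp, 1.60 with quantile normalization and 1.57 with detected-probe scaling. Slc2a3 in untreated cells was 8.05-fold higher in Perk-null (3.01 ± 0.20) and 2.23-fold lower in Atf4-null cells, and Slc2a1 1.90-fold higher and 2.06-fold lower; the Slc2a1 calls were lost without Perk-null replicate 2 (0.85 to 1.00 over the fits) and without Atf4-null replicate 1 (-0.57) or with normexp (-0.77). Slc16a1, the lactate importer and exporter MCT1, passed in none of the 10 comparisons.

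**Figure D4:**
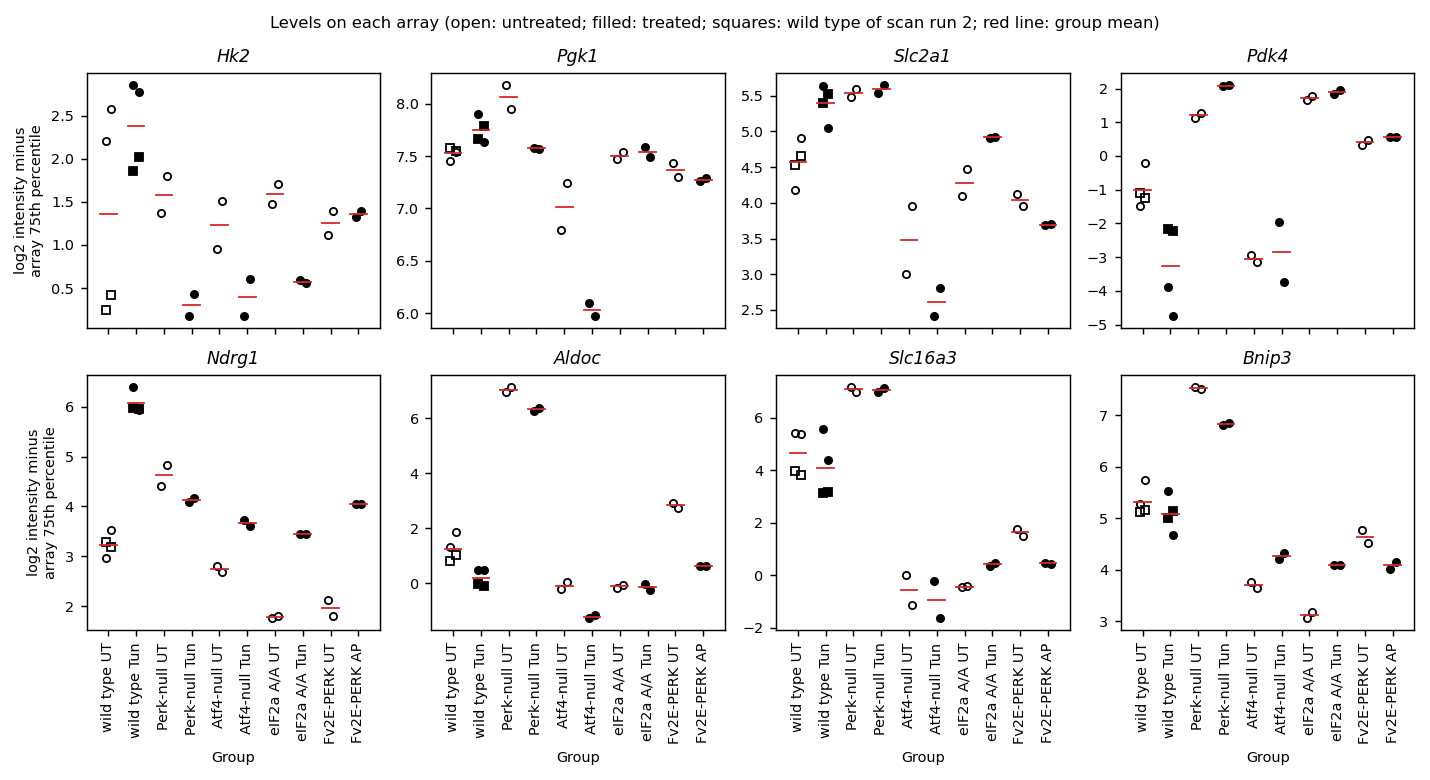
Level of 8 genes on each array (log2 intensity minus the array's 75th percentile), untreated open and treated filled, wild-type arrays of scan run 2 as squares and group means as red lines; each panel has its own vertical scale. Ndrg1 is 5.93 to 6.40 in treated against 2.96 to 3.52 in untreated wild-type cells, Slc16a3 and Aldoc are highest in Perk-null cells, and Pgk1 is lowest in treated Atf4-null cells.

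The pyruvate dehydrogenase kinases did not move together. Pdk4, the isoform linked to fasting and fat use, read -1.47, -0.21, -1.10 and -1.25 in untreated wild-type cells and -3.88, -4.76, -2.18 and -2.23 after tunicamycin. That is a 4.78-fold fall (-2.26 ± 0.44, adjusted p = 0.00089) without overlap, though 1 of the 4 treated arrays was not well above background. The change was -3.48 in run 1 and -1.03 in run 2, of which the second did not pass, and these differed (2.45, adjusted p = 0.032). In Perk-null cells Pdk4 read 1.13 and 1.27 before and 2.06 and 2.11 after tunicamycin, a change of 0.89 that did not pass, and in eIF2a A/A cells 1.67 and 1.78 before and 1.85 and 1.95 after. These responses lay above that of wild type by 3.15 ± 0.77 in Perk-null, 2.45 ± 0.77 in Atf4-null and 2.43 ± 0.77 in eIF2a A/A cells, all called. The Perk-null difference became 1.92 and was not called against the wild type of run 2 (adjusted p = 0.084), and it was lost without untreated replicate 1 or treated replicate 2 of Perk-null (2.65 to 3.42 over the fits). The Atf4-null difference was lost without untreated replicate 2 or treated replicate 1 (down to 1.55) and with quantile normalization (2.09). That of eIF2a A/A was lost without any of its 4 arrays, wild-type untreated replicate 1 or treated replicates 1 and 2 (1.93 to 2.70) and with quantile normalization (2.54). Pdk2 rose in eIF2a A/A cells, from -1.83 and -2.04 to -0.46 and -0.51 (1.45 ± 0.36, adjusted p = 0.033), and in Atf4-null cells by 1.02 ± 0.36 with untreated arrays at -0.40 and -1.98 that lie far apart. The eIF2a A/A call was lost without any of the 4 arrays (1.34 to 1.56) and with normexp (0.92), and the Atf4-null call without untreated replicate 2 or treated replicate 1 (down to 0.23) and with quantile normalization (0.94). Pdk3 fell in Atf4-null cells from 2.93 and 2.92 to 1.74 and 2.11 (-1.0 ± 0.14, adjusted p = 0.00013) while it read 2.35 to 2.89 before and 2.29 to 3.01 after in wild type. The Pdk3 response in Perk-null minus wild-type cells was -0.55 ± 0.17 (adjusted p = 0.046), a call lost against the wild type of run 2 (-0.63) and in 9 of 12 fits that left out an array (-0.69 to -0.42), and under each of the other 3 scalings (-0.43 to -0.52). The Pdk2 response lay above wild type by 1.42 ± 0.45 in Atf4-null cells, lost without the same 2 arrays as its response (down to 0.63), and by 1.85 ± 0.45 in eIF2a A/A cells, lost without untreated replicate 2 (1.72 to 1.96 over the fits). Untreated Perk-null cells had 3.39-fold more Pdk4 than wild type, lost without either Perk-null array or wild-type replicate 3 or 4 (1.35 to 2.01) or with quantile normalization (1.69). Pdk1, a HIF target in many cells, passed in no response of the model with all arrays; among the other scalings it was called in wild type with detected-probe scaling (-0.56). Untreated, it read 2.93 and 3.18 in Perk-null, 0.79 to 1.53 in wild type and -0.42 and -0.59 in Atf4-null cells, 2.62-fold higher and 2.83-fold lower than wild type.

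Of the PFKFB enzymes, Pfkfb3, the inducible isoform with the strongest kinase activity, fell in wild-type cells from 1.10, 1.86, 0.30 and 0.41 to -0.03, -0.47, -0.02 and 0.22 (-0.99 ± 0.26, adjusted p = 0.0063). The change was -1.73 in run 1 and -0.25 in run 2, and these differed (1.48, adjusted p = 0.019), so the pooled wild-type call comes from run 1. In Perk-null cells Pfkfb3 went from -0.19 and -0.06 to -0.88 and -0.86 (-0.74). In eIF2a A/A cells it went from 1.31 and 1.39 to 0.30 and 0.37 (-1.01). Neither group overlapped, but neither change passed in the model with all arrays. The change was -0.18 in Atf4-null cells, with overlap, and 0.06 with AP. Pfkfb4 fell in Atf4-null cells from 0.85 and 1.41 to 0.22 and -0.04 (-1.04 ± 0.24, adjusted p = 0.0045), a call lost without untreated replicate 2 (-0.76). In wild type Pfkfb4 fell in run 2 (-0.86) but was not called in run 1 (0.13), a difference of -0.99 that passed. Pfkfb2 passed in no response. Untreated Perk-null cells had 1.67-fold more Pfkfb2 and 1.63-fold more Pfkfb4, and Atf4-null cells 1.64-fold less Pfkfb4; these calls were lost without either Perk-null array or wild-type replicate 3 or 4 for Pfkfb2 (down to 0.61, and with normexp at 0.48 and quantile normalization at 0.50), without Perk-null replicate 1 for Pfkfb4 (0.60) and without Atf4-null replicate 1 (-0.43).

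Among the HIF pathway and hypoxia-regulated genes, Ndrg1, which many stresses besides hypoxia induce, behaved unlike the other 6. It rose in wild-type cells from 2.96, 3.52, 3.28 and 3.18 to 6.40, 5.93, 5.97 and 5.95, a 7.09-fold rise (2.83 ± 0.14, adjusted p = 6.7e-10), alike in run 1 (2.92) and run 2 (2.73). AP raised it 4.21-fold in Fv2E-PERK cells, from 2.13 and 1.81 to 4.05 and 4.05 (2.08 ± 0.19, adjusted p = 1.5e-05). Tunicamycin raised it 3.18-fold in eIF2a A/A cells, from 1.76 and 1.81 to 3.45 and 3.45 (1.67 ± 0.19, adjusted p = 0.00013), and 1.89-fold in Atf4-null cells, from 2.81 and 2.69 to 3.72 and 3.61 (0.92 ± 0.19, adjusted p = 0.0025). In Perk-null cells it read 4.41 and 4.83 before and 4.09 and 4.16 after, a change of -0.49 that did not pass. Minus that of wild type, the response was -3.32 ± 0.23 in Perk-null (adjusted p = 1.1e-06), -1.91 ± 0.23 in Atf4-null (adjusted p = 7e-05) and -1.16 ± 0.23 in eIF2a A/A cells (adjusted p = 0.0033), and -3.22 and -2.0 against the wild type of the same run for the first 2. All of these Ndrg1 calls were kept in every fit that left out an array. Untreated Perk-null cells already held 2.71-fold more Ndrg1 than wild type (1.44 ± 0.18, adjusted p = 1.5e-05).

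The other 6 did not rise in wild-type cells. Egln3, an oxygen sensor that HIF itself induces, fell by 1.73 ± 0.38 (adjusted p = 0.0020), from -1.16, -1.17, -0.69 and -0.73 to -3.45, -4.65, -1.35 and -1.23, and 1 of the 4 treated arrays was not well above background. The change was -2.88 in run 1 and -0.58, not called, in run 2, and these differed (2.31, adjusted p = 0.0093). Egln1, the main oxygen sensor, fell by 0.62 ± 0.22 and Ankrd37, a HIF target, by 0.62 ± 0.20. Egln1 lost its call without untreated or treated replicate 2 or 3 (up to -0.47) or with normexp (-0.39) or quantile normalization (-0.64), and Ankrd37 in 6 of 8 such fits, those without untreated replicates 2, 3 and 4 or treated replicates 2, 3 and 4 (up to -0.42). Hif1a passed in neither the pooled wild-type response (-0.68) nor that of run 2 (0.14), and fell by 1.50 in run 1. The pooled fall was called under the other 3 scalings, at -0.69 with normexp, -0.80 with quantile normalization and -0.81 with detected-probe scaling. In Perk-null cells Egln1 fell from 0.48 and 0.28 to -0.91 and -1.44 (-1.55 ± 0.31, adjusted p = 0.013), lost without either untreated array or treated replicate 2 (-1.82 to -1.29 over all 4 fits). Ankrd37 was called lower there with normexp (-1.10), quantile normalization (-1.19) and detected-probe scaling (-1.17), and Car9 with normexp (-1.13). With scan session as a block, Ankrd37 (-1.11), Egln3 (-1.18) and Bnip3 (-0.71) were called lower in Perk-null cells. In Atf4-null cells, where 1 of the 2 treated arrays was not well above background, Egln3 fell by 1.59 ± 0.53. That call was lost without untreated replicate 2 or either treated array (up to -1.05), with normexp background correction (-0.22), with detected-probe scaling (-1.36) and with the mean over its probes (-1.29). Other genes gained calls as higher in the Atf4-null response. Bnip3 did with quantile normalization (0.89) and detected-probe scaling (0.79), Egln1 with normexp (0.69) and detected-probe scaling (0.81), and Car9 with normexp (0.78). In eIF2a A/A cells Bnip3 rose from 3.06 and 3.19 to 4.09 and 4.09 (0.96 ± 0.22, adjusted p = 0.018), a call lost without any of the 4 arrays (0.90 to 1.03). Responses of eIF2a A/A cells lay above wild type for Bnip3 (1.20 ± 0.27), Ankrd37 (1.21 ± 0.35) and Egln3 (2.37 ± 0.65), and those of Atf4-null cells for Bnip3 (0.80 ± 0.27) and Egln1 (1.21 ± 0.38). Without any of their 4 own arrays the eIF2a A/A differences of Ankrd37 and Egln3 were not called (1.01 to 1.47 and 1.90 to 2.63). The Atf4-null difference of Bnip3 was lost without any of its 4 own arrays but untreated replicate 1, or without wild-type untreated replicate 2 (down to 0.59) or with normexp (0.54), and that of Egln1 without untreated or treated replicate 1 (down to 0.67) or with quantile normalization (1.10). Median changes of the 7 genes were -0.62 in wild-type, -1.11 in Perk-null, 0.56 in Atf4-null, 0.60 in eIF2a A/A and -0.29 in Fv2E-PERK cells. These medians rest on 7 genes, of which 4, 1, 2, 2 and 1 were called.

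In untreated cells several hypoxia-regulated genes also differed widely between lines. Car9, the pH-regulating carbonic anhydrase used as a hypoxia marker, read 1.74 and 2.39 in Perk-null cells, -0.81 and -0.69 in wild type of run 1, -3.05 and -3.01 in wild type of run 2, and -2.75 and -4.39 in Atf4-null cells, where 1 of the 2 arrays was not well above background. Perk-null cells were 33.3-fold above wild type (5.06 ± 0.57, adjusted p = 5.9e-06) and Atf4-null cells 6.90-fold below (-2.79 ± 0.57, adjusted p = 0.0026). Untreated wild type of run 2 minus run 1 was -2.28 (adjusted p = 0.013). Bnip3 read 7.55 and 7.51 in Perk-null, 5.11 to 5.74 in wild type and 3.76 and 3.65 in Atf4-null cells, 4.96-fold higher and 3.29-fold lower. Ankrd37 read 4.12 and 3.61, 0.52 to 1.15, and -0.68 and -0.39 in the same order, 6.90-fold higher and 2.45-fold lower. Egln1 was 2.19-fold higher in Perk-null cells, while Hif1a did not pass in either mutant (-0.94 and -0.81). With normexp Hif1a was called lower in both (-0.99 and -1.23), and with scan session as a block it was called lower in Atf4-null cells (-1.22), as were Egln1 (-0.81) and Egln3 (-1.12). Ndrg1 was 1.46-fold lower in Atf4-null cells, a call lost without either Atf4-null array or wild-type replicates 2, 3 or 4 (up to -0.40) or with normexp (-0.49). The direction of these counts did not depend on scaling: the medians of all 35 members were 0.81 in Perk-null and -0.69 in Atf4-null cells, and between 0.81 and 1.03 and between -0.76 and -0.65 under the other 3 scalings. The Perk-null excess again stood beside the marker shift of those cells, whose part was not tested.

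Genes listed for the same pathways outside the 35 behaved in mixed ways. Their counts stand beside the shares of all tested genes. These were 21.2% higher and 16.3% lower in the wild-type response, and 12.0% and 17.1% in the Atf4-null response. In untreated cells they were 16.3% higher and 24.8% lower in Perk-null, and 10.4% and 10.7% in Atf4-null. Several counts below, most of them in wild type, are near these shares. Of 23 other hypoxia target genes tested, 11 were higher and 3 lower in untreated Perk-null cells, among them Car12 (2.33 ± 0.29), Pgm1 (1.79 ± 0.20), Adm (-2.15 ± 0.54) and Lox (-5.99 ± 0.48), and 2 were higher and 12 lower in Atf4-null cells, among them Ak4 (-3.62 ± 0.48), Vegfa (-2.26 ± 0.42) and Car12 (2.79 ± 0.29). The tunicamycin response of this list in wild type had 4 higher, such as Hmox1 (2.25 ± 0.13) and Ero1a (1.93 ± 0.27), and 8 lower, such as Adm (-1.78 ± 0.41). Of 9 other HIF pathway components, 2 rose and 2 fell in wild type, each by under 1 on the log2 scale. Of 7 genes of the pentose phosphate pathway, which branches from glycolysis, Rpia (0.95 ± 0.12) and Pgls (0.94 ± 0.22) rose in wild type, whereas Pgd, Rpia, Taldo1 and G6pdx fell in Atf4-null cells, with changes of -1.33, -1.09, -0.97 and -0.86. Rpia, which makes ribose phosphate, responded less than wild type in Perk-null (-1.67 ± 0.21), Atf4-null (-2.04 ± 0.21) and eIF2a A/A cells (-1.28 ± 0.21). Of 9 genes of pyruvate entry into mitochondria, 3 rose and 1 fell in wild type and 3 fell in Atf4-null cells, among them Pdp2, a phosphatase that switches pyruvate dehydrogenase on (-1.65 ± 0.32). Of 3 tested genes of gluconeogenesis, Pck2, the mitochondrial PEP carboxykinase, rose in wild type (1.80 ± 0.14), with AP (1.62 ± 0.19) and in Perk-null cells (0.83 ± 0.19) and did not pass in Atf4-null or eIF2a A/A cells. Of 7 tested tissue isozymes of glycolysis, 2 fell in wild type, and Slc2a4, the insulin-regulated glucose transporter, was 1 of them (-1.44 ± 0.26).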

How the data were processed

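Cy3-labelled material from total RNA was measured on 24 one-colour Agilent arrays. Per the file headers, each spot's intensity was read by Agilent Feature Extraction (version 10.7.1.1), and the deposited processed signal is an intensity after background subtraction, not normalized between arrays. Deposited flags (coded 0 or 1) mark outliers and spots well above background. The authors' deposited log2 values are centred per probe, with an unknown baseline; 99.3% of them matched the scanner values within 0.001 after centring, and column medians, in order of replicate, were -0.13, 0.12, -0.21 and -0.22 (untreated) and -0.02, 0.07, -0.12 and -0.24 (treated) in wild type, -0.19 and 0.31, then 0.39 and -0.32, in Perk-null, -0.19 and -0.25, then 0.49 and -0.06, in Atf4-null, -0.23 and -0.18, then -0.19 and -0.08, in Fv2E-PERK and -0.01 and 0.03, then 0.04 and -0.02, in eIF2a A/A arrays.

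Spots of a probe were averaged without outliers, control spots were left out, and log2 values were taken minus the array's 75th percentile, over 55681 probes. Named through RefSeq accessions (GRCm38.p6, names only), 26631 probes had 1 symbol and 29050 none. A gene was tested if well above background on all arrays of at least 1 group (14459 genes; 5711 put aside). limma 3.58.1 (R 4.3.3) fitted 10 group means and a term for run 2 on all 24 arrays, two-sided, with Benjamini-Hochberg adjustment within each of 10 contrasts. On simulated data with 14459 genes, log2 changes of 1 and 2 were recovered in 62% and 85% of cases in the wild-type comparison and 32% and 72% in the Perk-null one. A fold bound for a group not well above background sets the brighter mean against the lowest signal well above background on each array of the dim group, or the dim probe's own where higher. Sequences and motifs came from RefSeq windows.

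Members and lists were chosen with earlier results of these data known. All 35 members are named, and of other lists up to 4 called genes with the largest change. One listed gene that this rule would name is counted in its list but not reported here. Alternatives covered background correction, scaling, filters, probes, runs, slides, sessions, fewer groups, the deposited table and leaving out each array; between 45.1% and 58.2% of probes exceeded background. The files hold spot medians but not spot means, so normexp used the medians. Labels give 12 h, the shared protocol 12 or 24 h, and a file name gives 24 h for the second untreated Perk-null array.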

Additional observations from a re-analysis of the deposited data

Results flagged for a closer look

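On 5 occasions 1 wild-type array lay far from the other 3 of its group, out of 70 groups of 4 examined. The cut-off passes about 1 in 20 for independent values of a single population. These groups join arrays of run 1 and run 2, and genes share arrays, so that rate does not apply to them. Among tunicamycin-treated arrays, replicate 1 stood apart for Pfkl (3.54), Gapdh (9.42) and Ndrg1 (6.40), and replicate 2 for Egln1 (-1.96). Among untreated arrays, replicate 1 stood apart for Pdk1 (0.79).

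The tunicamycin response of Perk-null minus wild-type cells passed the interaction test in limma for Ndrg1 (-3.32), Pdk4 (3.15), Hk2 (-2.29), Ldhb (1.79), Pfkm (0.94), Pgk1 (-0.71) and Pdk3 (-0.55).

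The response of Atf4-null minus wild-type cells passed for Pdk4 (2.45), Ndrg1 (-1.91), Hk2 (-1.86), Slc2a1 (-1.71), Eno1 (-1.67), Pdk2 (1.42), Egln1 (1.21), Pgk1 (-1.19), Pdk3 (-1.05), Gpi1 (-0.96), Aldoa (-0.95), Slc2a3 (0.93), Bnip3 (0.80), Ldha (-0.76), Pfkm (0.63) and Pgam1 (-0.58).

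The response of eIF2a A/A minus wild-type cells passed for Ldhb (2.62), Pdk4 (2.43), Egln3 (2.37), Hk2 (-2.04), Pdk2 (1.85), Ankrd37 (1.21), Bnip3 (1.20), Ndrg1 (-1.16), Pfkm (1.15), Slc2a3 (1.07) and Aldoc (1.02).

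The wild-type response of run 2 minus run 1 passed for Pdk4 (2.45), Egln3 (2.31), Hif1a (1.64), Ldhb (1.51), Pfkfb3 (1.48), Hk2 (1.19), Pfkfb4 (-0.99), Aldoa (-0.88) and Slc2a3 (-0.84).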

How the results depend on the processing

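Counts of called members moved by over 1.5 times under the following settings, with the count of the fit on all arrays first. The wild-type response (14) gave 7 within run 1 and 9 with only the compared groups fitted. The Perk-null response (4) gave 7 with quantile normalization or detected-probe scaling, 2 with no filter on dim probes, 1 with no run term, 12 within run 2 (926 genes passed) or with scan session as a block (1217 passed, against 330), 10 with session as a random block and 0 with only the compared groups, where limma had 1970 genes at an unadjusted p under 0.05. The Atf4-null response (15) gave 0 within run 1 and 0 with only the compared groups, with 3202 and 2557 genes at an unadjusted p under 0.05. The eIF2a A/A response (3) gave 5 with wild type split by line, 16 within run 3 (13 higher and 3 lower, where 4967 of 14459 genes passed), 13 with only the compared groups (10 higher and 3 lower, where 3281 passed) and 8 with session as a random block. The Fv2E-PERK response (4) gave 2 with no run term, 13 within run 3 (2 higher and 11 lower, where 4721 genes passed) and 14 with only the compared groups (1 higher and 13 lower, where 4160 passed). The Perk-null minus wild-type response (7) gave 3 with wild type split by line, 11 within run 2 and 4 with only the compared groups. The Atf4-null minus wild-type response (16) gave 10 with quantile normalization, 9 with no run term, 0 within run 1, 5 with only the compared groups and 25 with session as a block. The eIF2a A/A difference (11) gave 5 with no run term. Untreated Atf4-null minus wild type (23) gave 12 with no run term, 5 within run 1 and 8 with only the compared groups. Of the members' own values that were called in the fit on all arrays or in the alternative, only Pgam1 reversed. This was in the Atf4-null minus wild-type response, where it became 0.13 with quantile normalization. Changes of sign between values called in neither fit were not counted. The causes were not tested.

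Leaving out each array in turn gave 10 to 18 calls in wild type, 0 to 2 in Perk-null, 9 to 18 in Atf4-null, 1 to 2 in eIF2a A/A and 2 to 3 in Fv2E-PERK cells. For the differences from wild type it gave 3 to 8, 9 to 18 and 6 to 12 in Perk-null, Atf4-null and eIF2a A/A cells, and 19 to 26 and 14 to 23 for untreated Perk-null and Atf4-null cells. Replicate numbers did not pair the samples: same-numbered arrays correlated between -0.47 and 0.07 in their deviations within a genotype. In run 1, where same-numbered wild-type and Atf4-null arrays of a treatment share a scan session, they correlated at 0.27 (untreated) and 0.47 (treated). The session block, added after seeing the data, moved the called genes from 4406 to 6782 in the Atf4-null minus wild-type response and from 3048 to 5097 in untreated Atf4-null cells. With the replicate block the Perk-null response had 3 called members and 225 called genes instead of 4 and 330, and the crossed pairing, chosen after seeing the data, had 1 and 223. Few arrays per group and dim probes limit the precision.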
